A study of Homo sapiens with 12 samples.

Results

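The insulin and IGF receptor feedback genes are 9 of the 20046 genes that have a probe with a single symbol on the array: the insulin receptor substrates IRS1 and IRS2, the receptors IGF1R, INSR and ERBB3, the adaptor GRB10 and the binding proteins IGFBP2, IGFBP3 and IGFBP5. They were chosen by symbol, and every probe that the array's annotation assigns to 1 of these symbols was taken, 16 probes in all. RNA levels came from Illumina HumanHT-12 V4 bead arrays of LNCaP, an established human prostate cancer line that responds to androgen. All cells were first kept for 48 h in RPMI without phenol red and with charcoal-stripped serum, which lacks steroids, and were then treated for 48 h. The 4 groups of 3 arrays received the solvents ethanol and DMSO (vehicle), the synthetic androgen R1881 at 10 nM, the mTOR inhibitor Torin 1 at 100 nM, or R1881 and Torin 1 together. No group was kept with steroids in the serum, and nothing in the labels says whether the 3 arrays of a group came from separate cultures, so the p-values measure only how far these samples spread, which may be technical.

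Insulin and IGFs bind receptor tyrosine kinases that phosphorylate IRS proteins, and these recruit PI3 kinase, which activates AKT and mTOR. Active mTOR feeds back on the receptors: S6 kinase phosphorylates and destabilizes IRS1, mTOR complex 1 stabilizes the adaptor GRB10, and AKT holds FOXO factors out of the nucleus, where they would activate genes such as INSR, IRS2 and ERBB3. In prostate cancer cells the androgen receptor and this kinase pathway are known to restrain each other, and ERBB3 is among the receptors named in that exchange. The present values are RNA levels only, and the protein steps of this loop were not measured here.

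As a check of the treatments, FKBP5 rose by 3.99 and TMPRSS2 by 3.80 on the log2 scale with R1881, and KLK3 was at least 7.81-fold higher. The mitotic genes CDC20 and TOP2A fell by 4.53 and fell by 3.98 log2 with Torin 1. TOP2A was detected on 1 of the 3 Torin 1 arrays, so the size of its fall is uncertain. Between 16681 and 18868 of 47323 probes were detected per array, the median signal lay between 93.8 and 107, and arrays of 1 group correlated with r of at least 0.991. All 5 luminal prostate markers that have a probe were detected on all arrays, and the basal keratins KRT5 and KRT14 on none. Of 7 stromal markers 1, ACTA2, was detected on all arrays of every group. In vehicle the summed normalized signal of all 7 lay between 304 and 337, and with R1881 between 468 and 519. With Torin 1 the sum lay between 513 and 575, and with both drugs between 273 and 312. It includes ACTA2, which itself changed by log2 0.95 with R1881, 1.16 with Torin 1 and -1.13 with Torin 1 on top of R1881. PDGFRB was detected in no group. Of 5 immune markers 1 was detected on all arrays, and CD3E and CD14 on none. The part of these signals in the results below was not tested.

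Of the 16 probes, 11 were detected (detection p under 0.05, the share of negative control beads at least as bright) on at least 3 of the 12 arrays and were tested. These represent 6 genes: IRS2, IGF1R, GRB10, IGFBP2, IGFBP3 and ERBB3. The other 5 probes were detected on 0 of 12 arrays. The IRS1 probe ILMN_1759232 had signals of 91.6 to 107 and detection p of 0.0805 to 0.558, and the INSR probe ILMN_1670918 had 90.4 to 100.4 and 0.103 to 0.922. IGFBP5, which encodes a binding protein that sits in the extracellular matrix, had signals of 87.3 to 113 on ILMN_1750324 and 83.5 to 95.9 on ILMN_2132982, with detection p of 0.0688 to 0.723 and 0.571 to 0.979. The remaining GRB10 probe, ILMN_1667771, had signals of 85.6 to 106 and detection p of 0.087 to 0.934. With the groups ordered by mean, each overlapped the next on all 5 probes. RNA of IRS1, INSR and IGFBP5 was not detectable with these probes, which does not show that it was absent. The IGF1R probe was detected on 3 arrays, all with both drugs, and so passed the filter only through the group where it was highest. It is therefore described by its levels without a test, and the counts below cover the other 10 probes.

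**Figure D1:**
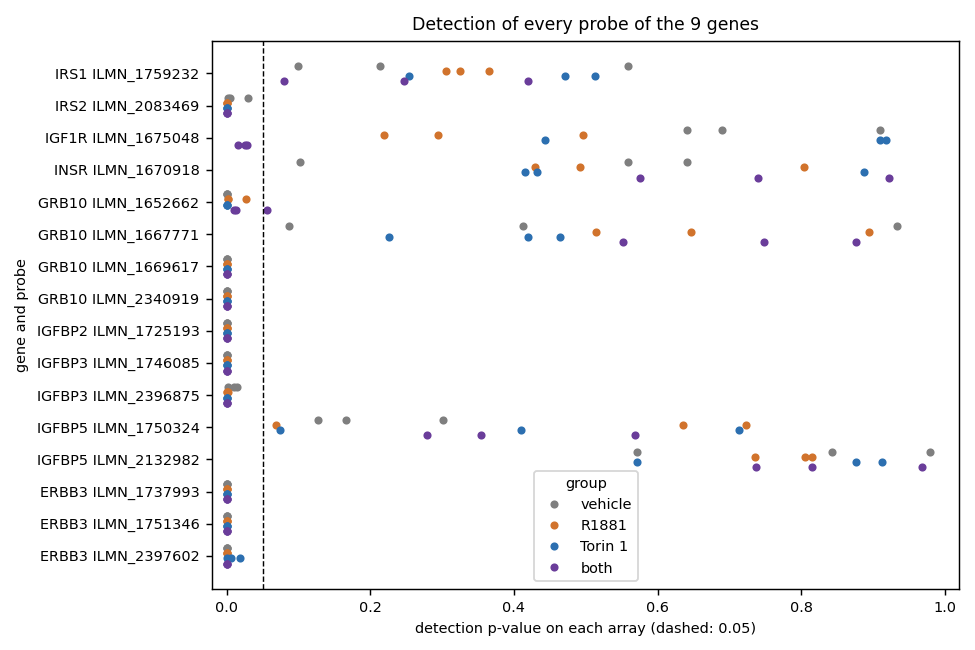
Detection p-value (horizontal axis, no unit) of each of the 16 probes on each of the 12 arrays, coloured by group, with a dashed line at 0.05. The probes of IRS1, INSR and IGFBP5 and ILMN_1667771 of GRB10 lie right of the line on every array, and the IGF1R probe lies left of it only with both drugs.

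R1881 changed 9 of these 10 probes against vehicle, 5 upward and 4 downward, where 29.9% of all 20413 tested probes were called, 13.3% upward and 16.5% downward. Torin 1 alone changed 5 probes, 4 upward and 1 downward, against 24.7% of all tested probes (13% upward and 11.7% downward). With R1881 present, Torin 1 changed 4 probes (3 and 1), against 38.1% of all (19.7% and 18.4%). With Torin 1 present, R1881 changed 9 probes, 5 upward and 4 downward, against 36.7% of all (16% and 20.8%). Both drugs against vehicle changed 8 probes (4 and 4), against 43.1% of all (20.2% and 22.9%). The response to R1881 differed with and without Torin 1 (interaction) for 4 probes, 3 of them toward a higher value under Torin 1, against 10.2% of all (5.5% higher and 4.67% lower). A call is limma's adjusted p under 0.05 over all tested probes. GRB10, IGFBP3 and ERBB3 each have more than 1 of these probes, so the counts are not counts of genes. By the brightest probe of each gene, 2 genes rose and 2 fell with R1881, where 34.6% of all 11517 tested genes were called. With Torin 1 alone 3 genes rose and 0 fell, where 28.6% were called. The comparisons against vehicle share the same 3 vehicle arrays, so their values stand side by side and are not counted as separate evidence. In bulk RNA, fewer cells that carry a transcript and less of it per cell cannot be told apart.

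**Figure D2:**
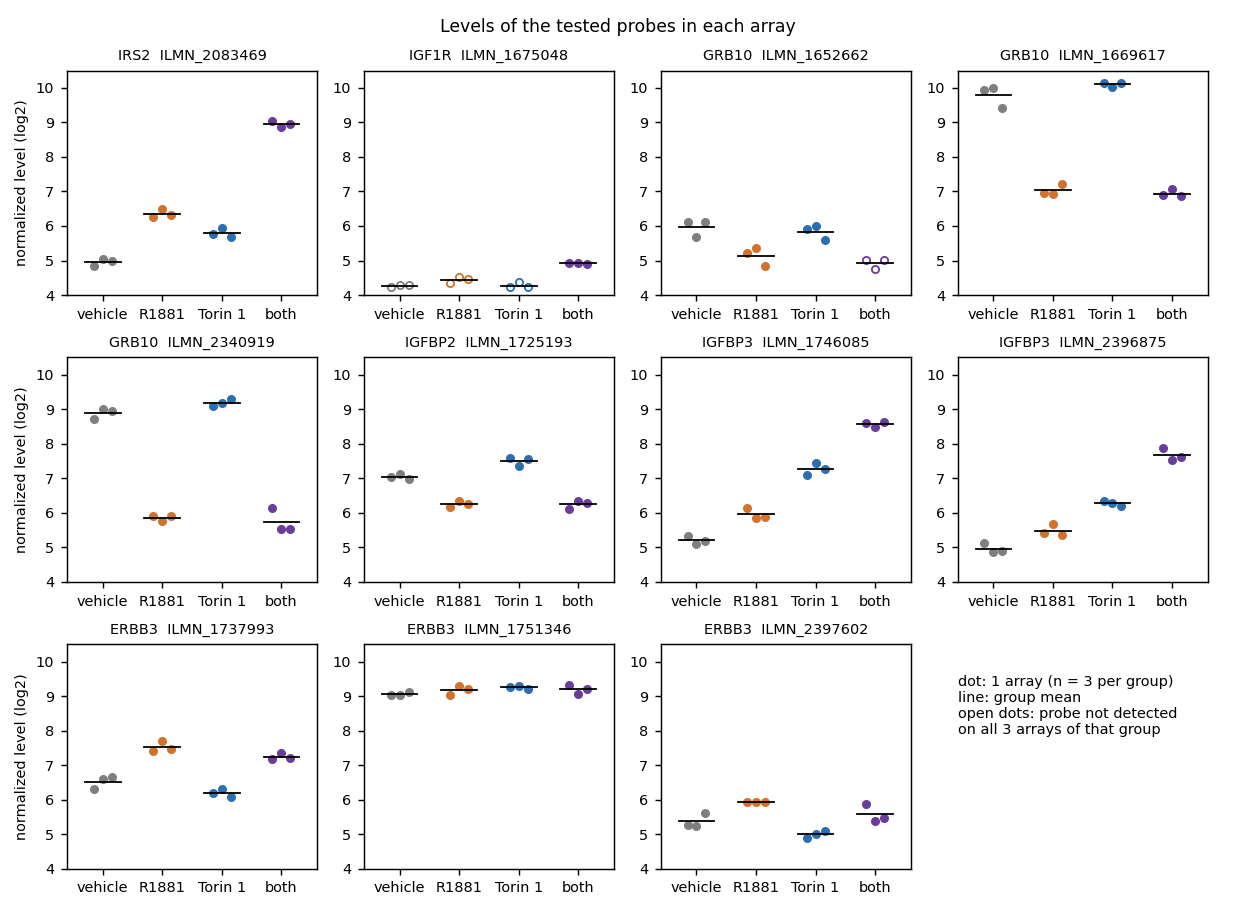
Normalized log2 level (vertical axis) of the 11 tested probes on each array, with 4 groups of 3 dots and the group mean as a line; open dots mark groups in which a probe was not detected on all 3 arrays. IRS2 and IGFBP3 are highest with both drugs, GRB10 and IGFBP2 are low in both groups with R1881, and the ERBB3 probe ILMN_1751346 stays between 9.03 and 9.34.

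The promoter windows of IRS2, IGFBP3 and IGFBP2 are shown because IRS2 and IGFBP3 rose with each drug and IGFBP2 fell with R1881. They are RefSeq sequence (GRCh38.p14) of the 250 bases before the annotated start, 5′ to 3′ on the gene's strand, at chr13:109786584-109786833 (minus strand, IRS2), chr7:45921273-45921522 (minus strand, IGFBP3) and chr2:216632578-216632827 (plus strand, IGFBP2). Capitals mark a match to a searched motif read on the opposite strand, which is CAAAACA, the insulin response type, for IRS2 and AGAACA, the hexamer of androgen response elements, for IGFBP2.
IRS2: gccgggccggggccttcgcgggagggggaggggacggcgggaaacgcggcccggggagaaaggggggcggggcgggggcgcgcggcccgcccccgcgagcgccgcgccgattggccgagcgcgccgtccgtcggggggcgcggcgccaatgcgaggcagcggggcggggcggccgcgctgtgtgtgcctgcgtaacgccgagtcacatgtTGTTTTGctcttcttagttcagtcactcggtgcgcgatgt
IGFBP3: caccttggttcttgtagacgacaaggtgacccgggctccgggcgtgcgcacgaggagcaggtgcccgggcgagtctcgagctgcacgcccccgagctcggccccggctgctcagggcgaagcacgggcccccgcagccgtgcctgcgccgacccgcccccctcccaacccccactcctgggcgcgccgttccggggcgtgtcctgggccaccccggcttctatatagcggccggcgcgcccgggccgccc
IGFBP2: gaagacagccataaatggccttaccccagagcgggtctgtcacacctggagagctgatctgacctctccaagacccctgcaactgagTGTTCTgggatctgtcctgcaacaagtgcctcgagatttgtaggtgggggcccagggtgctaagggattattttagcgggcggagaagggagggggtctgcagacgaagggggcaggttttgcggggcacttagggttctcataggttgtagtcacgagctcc
The IRS2 and IGFBP3 windows held 76.4% and 76% G and C, and the IGFBP2 window 56.8%. Searched on both strands were the insulin response type CAAAACA, the androgen hexamer AGAACA, the FOXO core TGTTTAC, the sterol element TCACNCCAC and the E-box CACGTG. No window held more than 1 match, so none overlapped another. Windows with 50 more bases after the start were available for 8 of the 9 genes, 14 windows in all, of which 4 held a motif: those of IRS2 and IRS1 (an E-box) and 2 of the 3 of IGFBP2 (AGAACA). Among 35116 windows of the same length, 4.92% held CAAAACA, 14.8% AGAACA, 3.42% TGTTTAC, 1.13% TCACNCCAC and 7.26% CACGTG. No searched motif lay in the 5 GRB10 windows or in those of IGF1R, INSR, IGFBP3 and IGFBP5, which says only that these letters are not in these windows.

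Among the binding proteins, which hold IGFs outside the cell, IGFBP3 rose with either drug and IGFBP2 fell with R1881. IGFBP3, the main carrier of IGFs in blood and known to slow growth of prostate cells, has 2 tested probes. ILMN_1746085 had log2 levels of 5.33, 5.11 and 5.17 with vehicle, 6.13, 5.86 and 5.88 with R1881, 7.09, 7.43 and 7.26 with Torin 1, and 8.60, 8.50 and 8.63 with both. No group overlapped another, and the order was vehicle, R1881, Torin 1, both. ILMN_2396875, annotated to another transcript of the gene, gave 5.14, 4.86 and 4.88, then 5.43, 5.67 and 5.35, then 6.34, 6.27 and 6.20, and 7.89, 7.54 and 7.62. It kept the same order, again with no overlap. With R1881 the first probe was 1.69-fold higher (log2 0.75 ± 0.11, SE, n = 3 per group, limma adjusted p = 0.000127) and the second 1.44-fold (0.52 ± 0.12, adjusted p = 0.00388). With Torin 1 they were 4.16-fold (log2 2.06, adjusted p = 1.14e-08) and 2.48-fold higher (1.31, adjusted p = 3.01e-06). Differences between probes of a gene within arrays were also compared, a choice made after the values were seen, with p adjusted over 14 such tests. The second IGFBP3 probe moved 0.58 log2 less than the first with Torin 1. Its vehicle mean of 4.96 lay near the lowest detected normalized level of 4.68 to 4.81, where a log2 rise can be understated. This difference is therefore given without a p-value and does not show that the 2 probes responded unequally.

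Adding Torin 1 to R1881 raised IGFBP3 6.13-fold (log2 2.62 ± 0.11, limma adjusted p = 7.95e-10) on ILMN_1746085 and 4.59-fold (2.20 ± 0.12, adjusted p = 1.06e-08) on ILMN_2396875. Against vehicle, both drugs together gave 10.3-fold and 6.61-fold (log2 3.37 and 2.72). These exceed the sums of the single changes, 2.81 and 1.84, by 0.56 (adjusted p = 0.0347) and 0.89 (adjusted p = 0.00437). The excess on ILMN_1746085 missed the threshold without vehicle replicate 1 or 3, R1881 replicate 2 or 3, Torin 1 replicate 1 or 3, or both-drug replicate 1 or 3, with values of 0.47 to 0.65 over all 12 single omissions. Without background correction the log2 changes were smaller, 0.28 and 0.17 with R1881 and 0.99 and 0.50 with Torin 1, and each was still called. The vehicle means of 5.21 and 4.96 lay near the lowest detected normalized level of 4.68 to 4.81. The single changes may therefore be understated, and the size of the excess over their sums is uncertain.

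IGFBP2, a binding protein known to be raised in prostate cancer, went the other way with R1881. Its probe ILMN_1725193 had log2 levels of 7.03, 7.14 and 6.99 with vehicle, 6.18, 6.34 and 6.25 with R1881, 7.58, 7.36 and 7.56 with Torin 1, and 6.12, 6.36 and 6.29 with both. Both groups with R1881 lay below vehicle and overlapped each other, and the Torin 1 group lay above vehicle. R1881 lowered it 1.74-fold (log2 -0.80 ± 0.094, limma adjusted p = 2.03e-05) and Torin 1 raised it 1.37-fold (0.45, adjusted p = 0.00333). With R1881 present, Torin 1 made a log2 difference of 0.00 (95% interval -0.20 to 0.20, adjusted p = 0.989). With Torin 1 present, R1881 lowered it 2.37-fold (log2 -1.24 ± 0.094, adjusted p = 1.63e-07). The interaction of -0.45 (adjusted p = 0.0483) missed the threshold when any array other than Torin 1 replicate 2 or both-drug replicate 2 was left out, with values of -0.52 to -0.38. Without background correction the R1881 change was -0.44 and the Torin 1 change 0.30, both called.

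Among the receptors, IGF1R, the receptor for IGF1 and IGF2, was detected only with both drugs. Its probe ILMN_1675048 had log2 levels of 4.94, 4.92 and 4.89 with both drugs, where all 3 arrays were detected. The levels were 4.22, 4.30 and 4.30 with vehicle, 4.35, 4.51 and 4.46 with R1881, and 4.23, 4.37 and 4.22 with Torin 1, with 0 detected arrays in each of these groups. The group with both drugs lay above all other arrays. It was at least 1.16-fold higher than vehicle, at least 1.12-fold higher than R1881 and at least 1.14-fold higher than Torin 1, given as a description with bounds set by the lowest detected normalized level on each array, 4.68 to 4.81. No fold was formed between the other 3 groups. The signal of this probe ran from 86.7 to 114 over all arrays, close to that of undetected probes. These bounds depend on the processing: in the authors' deposited processed values the means of the both-drug and vehicle arrays differed by 0.13 log2, less than the bound of 0.21 log2 (1.16-fold) given here.

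ERBB3 encodes HER3, a receptor for neuregulins that signals mainly by pairing with ERBB2, and its probes gave different answers. ILMN_1751346, annotated to the full-length transcript, had log2 levels of 9.03, 9.03 and 9.12 with vehicle, 9.04, 9.30 and 9.21 with R1881, 9.27, 9.30 and 9.21 with Torin 1, and 9.34, 9.05 and 9.20 with both. In the order vehicle, R1881, both, Torin 1 each group overlapped the next, while the Torin 1 arrays lay above the vehicle arrays. limma called no comparison of this probe, and the lowest unadjusted p was 0.0529. The 95% interval of its log2 change was -0.08 to 0.32 with R1881 (limma adjusted p = 0.387), 0.00 to 0.40 with Torin 1 (adjusted p = 0.146) and -0.19 to 0.22 for Torin 1 in the presence of R1881 (adjusted p = 0.921).

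The other 2 ERBB3 probes are annotated to a short transcript, which encodes a truncated, secreted form of the receptor. ILMN_1737993 had log2 levels of 6.30, 6.59 and 6.67 with vehicle, 7.41, 7.70 and 7.48 with R1881, 6.19, 6.30 and 6.08 with Torin 1, and 7.18, 7.34 and 7.22 with both. Both groups with R1881 lay above both groups without it. R1881 raised this probe 2.01-fold (log2 1.01 ± 0.11, limma adjusted p = 1.23e-05) and, with Torin 1 present, 2.08-fold (1.06 ± 0.11, adjusted p = 5.5e-06). ILMN_2397602 had levels of 5.27, 5.23 and 5.61, then 5.92, 5.94 and 5.94, then 4.90, 5.01 and 5.09, and 5.87, 5.40 and 5.48. Here the both-drug and vehicle arrays overlapped, and R1881 arrays were highest. R1881 raised it 1.48-fold (0.56 ± 0.13, adjusted p = 0.00447) and, with Torin 1 present, 1.50-fold (0.58, adjusted p = 0.00273).

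Torin 1 gave lower values of both short-transcript ERBB3 probes, near the threshold. The log2 changes with Torin 1 alone were -0.33 (ILMN_1737993, adjusted p = 0.0471) and -0.37 (ILMN_2397602, adjusted p = 0.0515), and with R1881 present -0.29 (adjusted p = 0.0626) and -0.35 (adjusted p = 0.046). The call on ILMN_1737993 was lost without vehicle replicate 2 or 3, R1881 replicate 3, or any single Torin 1 or both-drug array (-0.44 to -0.26 over all omissions), and that on ILMN_2397602 without vehicle replicate 1, both-drug replicate 2 or 3, or any single R1881 or Torin 1 array (-0.50 to -0.26). Both calls were also lost without background correction and without a filter. That on ILMN_1737993 was lost in the authors' deposited values too, and that on ILMN_2397602 with median scaling and with the replicate block. Calls were gained on ILMN_2397602 with Torin 1 alone without vehicle replicate 2 (-0.44) or both-drug replicate 1 or 2 (-0.37), and on ILMN_1737993 with R1881 present without vehicle replicate 1 (-0.29) or R1881 replicate 1 (-0.35). The former was also gained with cyclic loess, the stricter filter and median scaling over all probes. The latter was also gained with another offset, no background correction, cyclic loess and the replicate block. Relative to the full-length probe, ILMN_1737993 was 1.01 log2 higher with R1881 (exact permutation within Torin 1 strata, two-sided p = 0.005, the smallest possible, adjusted p = 0.01) and changed by -0.42 with Torin 1 (exact p = 0.01, adjusted 0.0175). ILMN_2397602 gave 0.54 and -0.47 (exact p = 0.005 and adjusted p = 0.01 for each). With R1881 the difference ILMN_2397602 less ILMN_1737993 changed by -0.46 log2, given without a p-value. The ERBB3 probes therefore changed unequally, including those annotated to the same transcript. These differences cannot be assigned to the short against the full-length transcript, and do not show that either transcript stayed constant. Without background correction the R1881 changes were 0.62 and 0.21 log2, both called.

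**Figure D3:**
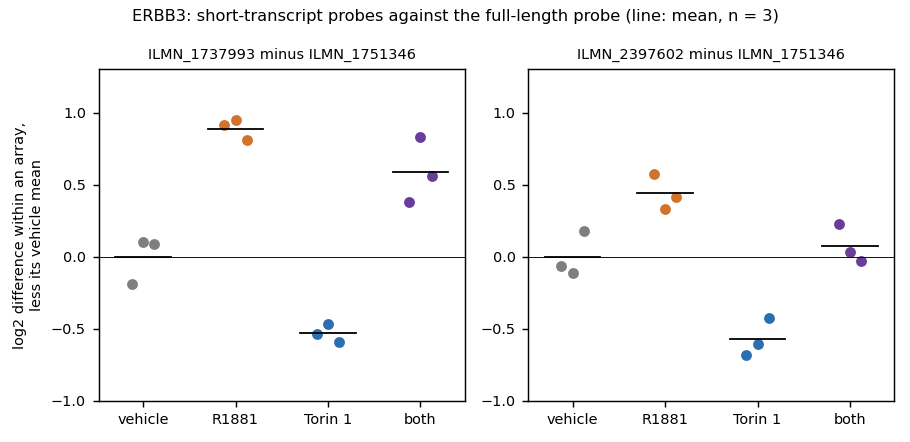
Log2 difference between each short-transcript ERBB3 probe and the full-length probe on the same array, less its mean over the vehicle arrays (vertical axis), for 4 groups of 3 arrays (dots) with the mean as a line. The R1881 group has the highest mean and the Torin 1 arrays lie lowest in both panels, with changes of 1.01 and 0.54 for R1881 and -0.42 and -0.47 for Torin 1 over both strata.

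Among the adaptors, IRS2 showed the largest log2 rise with both drugs among the 10 probes counted above. IRS2 docks PI3 kinase on the active insulin and IGF receptors and is a textbook FOXO target. Its probe ILMN_2083469 had log2 levels of 4.84, 5.04 and 4.97 with vehicle, 6.26, 6.49 and 6.32 with R1881, 5.78, 5.94 and 5.69 with Torin 1, and 9.05, 8.87 and 8.96 with both. No group overlapped another, and the order was vehicle, Torin 1, R1881, both. R1881 alone raised it 2.65-fold (log2 1.41 ± 0.097, limma adjusted p = 9.67e-08), and Torin 1 alone 1.80-fold (0.85 ± 0.097, adjusted p = 3.06e-05). Against vehicle, both drugs gave 16.1-fold (4.01 ± 0.097, adjusted p = 1.23e-12).

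With Torin 1 present, R1881 raised IRS2 8.93-fold (log2 3.16, limma adjusted p = 1.63e-11), against 2.65-fold without it. The log2 sum of the single changes was 2.26 and the change with both was 4.01, a difference of 1.75 ± 0.14 (SE, adjusted p = 5.86e-06). This interaction was called under every alternative processing and every omission of 1 array, with values of 1.53 to 1.82. The vehicle signal was close to background (106 to 115 on the 3 arrays, against 541 to 585 with both drugs), and without background correction the single changes were 0.55 for R1881 and 0.29 for Torin 1 and the change with both drugs 2.37, all called.

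**Figure D4:**
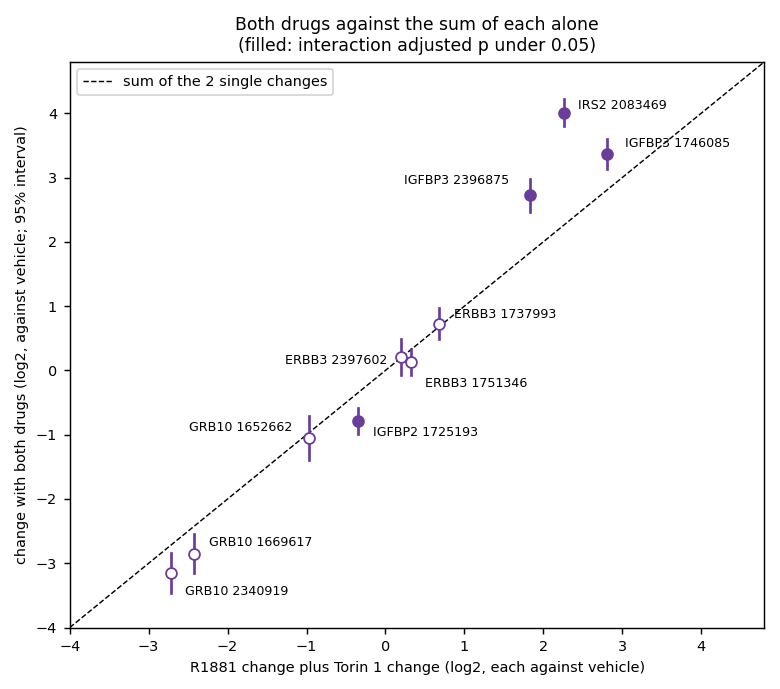
Log2 change with both drugs against vehicle (vertical axis, with 95% interval) set against the sum of the log2 changes with R1881 alone and Torin 1 alone (horizontal axis) for the 10 tested probes other than that of IGF1R; filled points have an interaction adjusted p under 0.05 and the dashed line is equality. IRS2 lies 1.75 above the line, the IGFBP3 probes 0.56 and 0.89 above it, and the GRB10 probes 0.08 to 0.43 below it without a call.

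GRB10, an adaptor that binds the active insulin and IGF1 receptors and dampens their signal, fell with R1881 on all 3 tested probes. ILMN_1669617 had log2 levels of 9.94, 10.01 and 9.41 with vehicle, 6.96, 6.94 and 7.21 with R1881, 10.14, 10.03 and 10.15 with Torin 1, and 6.89, 7.06 and 6.86 with both. ILMN_2340919 had 8.71, 9.01 and 8.94, then 5.90, 5.76 and 5.91, then 9.10, 9.19 and 9.30, and 6.14, 5.53 and 5.53. ILMN_1652662 had 6.11, 5.69 and 6.12, then 5.22, 5.37 and 4.85, then 5.91, 5.99 and 5.60, and 5.02, 4.75 and 5.003, with 2 of the 3 both-drug arrays detected. On each probe all 6 arrays with R1881 lay below all 6 without it, and the 2 groups with R1881 overlapped each other.

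R1881 lowered GRB10 6.72-fold on ILMN_1669617 (log2 -2.75 ± 0.14, limma adjusted p = 4.15e-09), 8.16-fold on ILMN_2340919 (-3.03 ± 0.15, adjusted p = 2.52e-09) and 1.78-fold on ILMN_1652662 (-0.83 ± 0.16, adjusted p = 0.00113). With Torin 1 present the log2 changes were -3.17, -3.46 and -0.91, all called. Torin 1 was called on none of the 3 probes by limma, with log2 changes of 0.32, 0.31 and -0.14 without R1881 (adjusted p = 0.114, 0.151 and 0.567; unadjusted p = 0.0376, 0.0557 and 0.375) and -0.10, -0.12 and -0.22 with it. The 95% interval of the Torin 1 change of ILMN_1669617 was 0.02 to 0.63. On this probe and on ILMN_2340919 the Torin 1 arrays lay above the vehicle arrays, while on ILMN_1652662 they overlapped. With another offset or without background correction, the Torin 1 change of ILMN_2340919 was called. Without both-drug replicate 1, ILMN_2340919 was called with Torin 1 (0.31, adjusted p = 0.036), for Torin 1 on top of R1881 (-0.33, adjusted p = 0.0324) and for the interaction (-0.63, adjusted p = 0.0182). Within arrays ILMN_1652662 moved less with R1881 than ILMN_1669617 by 2.09 and than ILMN_2340919 by 2.38 log2. Its vehicle mean was 5.97 and the lowest detected level 4.68 to 4.81, so it had no room for a fall as large as theirs. This difference is therefore given without a p-value and does not show that the probes responded unequally. Without background correction the 3 R1881 changes were -2.18, -1.99 and -0.31.

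**Figure D5:**
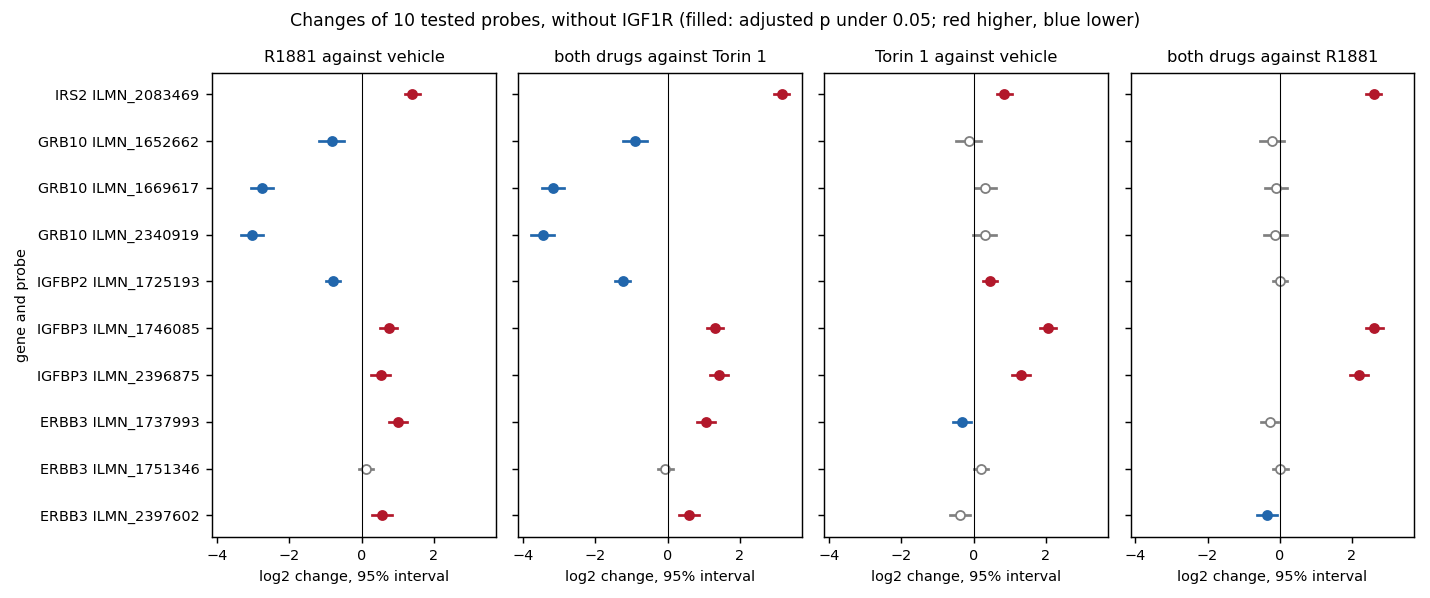
Log2 change (horizontal axis) with its 95% interval for the 10 tested probes other than that of IGF1R (vertical axis) in 4 comparisons; filled points were called at an adjusted p under 0.05, red for higher and blue for lower. GRB10 and IGFBP2 are lower with R1881 with and without Torin 1, and IGFBP3 and IRS2 are higher in all 4 comparisons.

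As a description, the genes whose brightest probe followed each member most closely over the 12 arrays, which fall into the 4 groups, were named by Pearson r, without a test. For IRS2 these were DNAJC10 (r = 0.994), an ER folding enzyme, CREB3L2 (0.992), an ER membrane transcription factor, and LIN7A (0.991). For GRB10 they were LRRN1 (0.994), GNRH1 (0.994), the precursor of gonadotropin-releasing hormone, and ZIC2 (0.993), and for IGFBP2 SYTL2 (0.993), NFKB1 (0.987) and STXBP5L (0.987). For IGFBP3 they were H2BC5 (0.980), TRIM39 (0.978) and ELF2 (0.977), and for IGF1R, which was not detected on 9 of the 12 arrays, MARCKS (0.988), FAM83A-AS1 (0.984) and PGM2 (0.982). The full-length ERBB3 probe, which was called in no comparison, had lower values of r, with MAGOH at 0.893, DUSP28 at 0.844 and RPS26P11 at 0.828.

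The rest of the pathway was read from 3 lists, each gene by its brightest tested probe. Of 14 other IGF ligands, receptors, binding proteins and their regulators 5 were tested, and both ligand genes, IGF1 and IGF2, were below the detection filter, as were IGFBP1, IGFBP4 and IGFBP6. With R1881 2 of the 5 were called, both lower, against 34.6% of all 11517 tested genes called, and with Torin 1 1 rose and 1 fell, against 28.6%. The median log2 changes were -0.01 and 0.11, beside -0.03 and 0.02 over all genes. HTRA1, a secreted protease that can cut IGF binding proteins, was at least 2.33-fold lower with R1881 (limma adjusted p = 1.53e-06). STC2, an inhibitor of the protease that frees IGFs from IGFBP4, fell 1.65-fold with R1881 (log2 -0.72), rose 1.60-fold with Torin 1 (0.68) and fell 4.49-fold with R1881 in the presence of Torin 1 (-2.17), and its interaction was -1.45 (adjusted p = 1.08e-05). IGF2R, which clears IGF2, fell 1.69-fold with Torin 1 (log2 -0.76, adjusted p = 0.000339).

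Of 27 further adaptors and regulators of the insulin and IGF1 receptors, 19 were tested. With R1881 3 rose and 2 fell (median log2 change -0.09), against 34.6% of all genes called, with Torin 1 2 rose and 5 fell (-0.11), against 28.6%, and with Torin 1 on top of R1881 5 rose and 4 fell (-0.03), against 43.1% and a median of 0.01 over all genes. SOCS2, a suppressor of growth hormone and IGF1 receptor signals, rose 3.10-fold with R1881 and fell 1.42-fold with Torin 1, and its R1881 response was 1.00 log2 larger under Torin 1 (limma adjusted p = 0.000178, where 12.1% of all genes were called). The other SOCS2 probe gave 1.77, -0.40 and 1.00 log2 for these, all called. GRB14, the close relative of GRB10, was uncertain: its brightest probe fell with R1881 (log2 -0.99, adjusted p = 5.1e-05) and with Torin 1 (-0.70, adjusted p = 0.00147), while its other tested probe gave 0.07 with R1881 (adjusted p = 0.616) and rose with Torin 1 (0.30, adjusted p = 0.0263). PTPN1, a phosphatase of the insulin receptor, rose 1.59-fold with R1881 and fell 1.40-fold with Torin 1, and GIGYF2, a partner of GRB10, fell 1.30-fold with R1881. FBXW8, a subunit of the ubiquitin ligase that targets IRS1 and is built on CUL7, rose 1.65-fold with Torin 1 (adjusted p = 0.000467). CUL7 rose 1.74-fold with Torin 1 on top of R1881 (adjusted p = 9.19e-05) and TRIB3, an inhibitor of AKT, fell 2.14-fold there (adjusted p = 1.19e-07). In the same comparison the adaptor GAB2 rose 1.61-fold (adjusted p = 0.000197), and ENPP1, an inhibitor of the insulin receptor, was at least 1.48-fold lower on its brightest probe (adjusted p = 3.09e-05) and fell by 0.34 log2 on the other. With R1881 alone CUL7 and GAB2 were each detected on 2 arrays, with means of 4.74 and 4.77. These lay at the lowest detected level of 4.68 to 4.81, so the folds of CUL7 and GAB2 are uncertain.

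Of 18 other ERBB receptors, ligands and regulators 12 were tested, of which 5 rose and 3 fell with R1881, where 34.6% of all genes were called (median log2 change 0.24, beside -0.03 over all genes). With Torin 1 3 rose and 2 fell, where 28.6% were called (0.09, beside 0.02). ERBB2, the main partner of ERBB3, fell 1.86-fold with R1881 (log2 -0.89, limma adjusted p = 8.35e-06) and rose 1.43-fold with Torin 1 (0.52, adjusted p = 0.00159). ERRFI1, a feedback inhibitor of EGFR and ERBB2, rose 5.43-fold with R1881 and 18.4-fold with R1881 in the presence of Torin 1, an interaction of 1.76 log2 (adjusted p = 1.92e-06). LRIG1, which promotes the breakdown of ERBB receptors, rose 3.62-fold with R1881 (log2 1.86) and 5.07-fold under Torin 1 (2.34), with 1.92 and 2.59 log2 on its other probe. HBEGF, a ligand of EGFR, fell with R1881 alone (log2 -0.36, adjusted p = 0.0161) and rose with R1881 under Torin 1 (1.11). Its interaction was 1.47 (adjusted p = 3.05e-05). NRG4, a neuregulin, rose 1.80-fold with R1881 (adjusted p = 2.28e-05), and PA2G4, an ERBB3-binding protein, fell 1.29-fold with Torin 1 (adjusted p = 0.0323). The vehicle mean of NRG4, 4.72 with 2 arrays detected, lay at the lowest detected level, so its fold is uncertain. EGFR rose 1.26-fold with Torin 1 on its brightest probe (adjusted p = 0.0308), while the other gave 0.05 log2 (adjusted p = 0.766) and had an interaction of -0.51 (adjusted p = 0.0368). By the brightest probes 3 of the 12 genes were called for the interaction, all higher, where 12.1% of all genes were called, while the list's median was -0.25.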

How the data were processed

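RNA of 12 LNCaP samples, purified with a QIAGEN kit and labelled with biotin per the labels, was hybridized to Illumina HumanHT-12 V4 arrays. The authors deposited a signal intensity per probe, which the values show to be neither background-subtracted nor normalized between arrays. A detection p-value stands beside each, per the file headers, in steps that give 770 negative control beads. The authors also deposited processed values on the log2 scale, with a normalization that the labels and headers do not name. All 12 processed columns correlated most closely with the signal of their own sample (r of at least 0.974).

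The deposited intensity was background-corrected by limma 3.58.1 (R 4.3.3) with the normexp model (background from the detection p-values, offset 16), put on the log2 scale and quantile normalized. Probes detected (p under 0.05) on at least 3 of the 12 arrays were kept, 20413 of 47323. A limma model of 4 group means (8 residual degrees of freedom, moderated by empirical Bayes) was fitted to all kept probes, with Benjamini-Hochberg adjustment over them in each of 6 contrasts, the interaction being the difference of the R1881 response with Torin 1 from that without. For the pathway lists each gene was read from its brightest kept probe in the same fit, beside the brightest kept probes of 11517 genes. Gene symbols came from the platform annotation and promoters from RefSeq. A probe detected on no array of a group gives only a bound, formed against the lowest detected normalized level, and IGF1R, which passed the filter only through its high group, is given without a test. Fits were tested on simulated data. No pair of arrays held identical values, and the number of arrays limits the precision.

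The members, gene lists, motifs and tests were chosen with earlier results of these data known. All 9 genes and their probes are named, as are up to 4 called genes per list and contrast with the smallest adjusted p, and the 3 genes most like each member. Replicate numbers were checked for pairing: after removal of group means, arrays of the same number correlated with r of -0.11 to 0.146 (mean -0.00842, 18 pairs), so no block was used. Alternatives were another offset, no background correction, cyclic loess, median scaling, no filter, a stricter filter, the authors' deposited values, a replicate block, the brightest probe per gene and omission of each array.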

Additional observations from a re-analysis of the deposited data

Results flagged for a closer look

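The response to R1881 differed between cells with and without Torin 1, by the interaction term of the limma model, on 4 of the 10 tested probes other than that of IGF1R. For IRS2 (ILMN_2083469) the log2 response was 1.75 larger with Torin 1. For IGFBP3 it was 0.56 larger on ILMN_1746085 and 0.89 larger on ILMN_2396875. Vehicle levels of both genes lay near background, so the sizes of these differences are uncertain. For IGF1R no such difference can be formed, since its probe was detected only in cells given both drugs. For IGFBP2 (ILMN_1725193) the difference was -0.45, a larger fall with Torin 1.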

How the results depend on the processing

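For the 10 probes other than that of IGF1R, each change was recomputed under 21 or 22 alternatives, 12 of them omissions of 1 array. The number differs because the choice of 1 probe per gene dropped some probes. Of 39 called changes 34 kept their call in every alternative run, 5 lost it in some, 5 uncalled changes gained it in some, and 0 called changes turned direction. Lost in some were the 2 Torin 1 calls on short-transcript ERBB3 probes, the interactions of IGFBP2 and IGFBP3 (ILMN_1746085), and the Torin 1 rise of IGFBP2, the last only with median scaling over all probes (adjusted p = 0.0815), an alternative chosen after seeing the data.

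The next counts are over all 11 tested probes and include IGF1R, which passed the filter only through its high group and adds no support. The choice of the brightest probe per gene tests fewer probes and leaves 6 member genes. Of these 6, 4 were called between R1881 and vehicle arrays, and 3 between Torin 1 and vehicle arrays. Torin 1 on top of R1881 changed 3 of 6. In the main fit 34.6%, 28.6% and 43.1% of all 11517 genes were called in these comparisons, so the 3 of 6 lie near the last share. The both-drug arrays differed from the Torin 1 arrays in 5 genes and from the vehicle arrays in 5. Of all tested, 5853 were called between both-drug and vehicle arrays, against 8800 in the main fit. The 5 interactions so counted became 3 with cyclic loess and without a filter, 2 with median scaling, and 2 with median scaling over all probes, where all calls fell from 2076 to 1021. Omission of 1 array left 3 to 5. Without IGF1R the 4 interactions became 2 to 4 over the settings that keep all 10 probes. The replicate block also left 3 interactions, ended the calls of IGFBP2, IGFBP3 (ILMN_1746085) and ERBB3 (ILMN_2397602, both drugs against R1881) and gained that of ILMN_1737993 there, although the numbers do not pair the arrays. The causes were not tested.

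Median scaling moved the median of all tested probes for both drugs against vehicle from 0.00 to 0.11. It made the share of higher calls 57.5% for R1881 (44.7% as reported), 54.1% for both drugs against Torin 1 (43.5%) and 57.6% against vehicle (47%). Over all probes the shares were 20.3%, 27.8% and 23.7%, with 30.9% for Torin 1 (52.5%) and 69% for the interaction (54%). Signals near background limit IRS2, IGF1R, IGFBP3 and the dimmer ERBB3 probes in untreated cells, and the dimmer GRB10 probes in cells given R1881. Log2 changes there depend on the background correction.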
